A study of Mus musculus with 9 samples.

Results

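The genes described here encode the proteins of the cytosolic ribosome. They were taken from the deposited gene table by name: symbols of the form Rpl or Rps followed by a number, with or without a final a or x, together with Rplp0, Rplp1, Rplp2, Rpsa and Rps3a1. Of 31232 genes listed, 77 matched, and all 77 had at least 10 counts in at least 3 libraries and entered the test of 15774 genes. They comprise 43 Rpl genes of the large subunit, the 3 stalk genes Rplp0, Rplp1 and Rplp2, and 31 genes of the small subunit. The RNA came from bEnd.3, a mouse brain endothelial cell line immortalised with the polyoma virus middle T antigen, grown on glass coverslips and placed in a parallel-plate flow chamber. The PSS group (physiological shear) had laminar flow at 10 dyne/cm2, the HSS group (high shear) had laminar flow at 20 dyne/cm2, and the Vortex group, called VSS in the protocol text, had vortex flow at 0.5 to 2 dyne/cm2. Each group had 3 polyA RNA libraries, and all 9 came from the same line with no genetic change or drug named. The series sets the groups as models of normal cerebral flow, of the high shear where an intracranial aneurysm starts, and of the disturbed flow inside a grown aneurysm. The labels name no time under flow, and nothing in the labels says that libraries of a group came from separate cultures, so p-values measure only the spread between these libraries, which may be technical.

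A ribosome joins a small subunit, which reads the mRNA, to a large subunit, which forms the peptide bond, and nearly every one of its proteins is present once per ribosome. The mRNAs of most ribosomal proteins start with a C followed by an unbroken run of pyrimidines, the terminal oligopyrimidine tract. Through that tract the protein Larp1 and the mTOR kinase control their translation and stability as a group, and in endothelial cells shear stress is known to act on mTOR signalling.

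Start sites of 57 of the 77 genes were found in RefSeq annotation of GRCm38.p6, with 67 starts in all. In 27 of the 57 genes (47.4%) an unbroken run of at least 5 letters C or T that begins with C started within 5 bases of an annotated start on the sense strand, against 21.2% of 27025 genes in the same table. The following windows each hold 30 bases before and 20 bases from the annotated start. They show the run for 6 genes called in Vortex against HSS, and 2 genes called there without it. They lie at chr7:4792935-4792984 (Rpl28, plus strand), chr7:141447621-141447670 (Rplp2, plus), chr16:33056452-33056501 (Rpl35a, plus), chr4:86857348-86857397 (Rps6, minus), chr17:27635225-27635274 (Rps10, minus), chr17:33955646-33955695 (Rps18, minus), chr7:99483690-99483739 (Rps3, minus) and chr10:80292401-80292450 (Rps15, plus). Capitals mark the run.
Rpl28: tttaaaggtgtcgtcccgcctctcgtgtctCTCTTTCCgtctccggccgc
Rplp2: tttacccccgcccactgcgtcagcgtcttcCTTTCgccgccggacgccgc
Rpl35a: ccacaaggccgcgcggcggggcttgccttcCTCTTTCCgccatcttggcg
Rps6: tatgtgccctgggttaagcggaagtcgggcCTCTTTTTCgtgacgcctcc
Rps10: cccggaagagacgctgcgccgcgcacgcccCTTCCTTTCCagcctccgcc
Rps18: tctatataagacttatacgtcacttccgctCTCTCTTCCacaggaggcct
Rps3: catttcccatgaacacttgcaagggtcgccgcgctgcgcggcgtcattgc
Rps15: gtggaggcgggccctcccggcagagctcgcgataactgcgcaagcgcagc
In the first 6 windows the run is marked from the annotated first base, which the search tried first. In all 6 a C or T also stands directly before that base. The marked run is thus part of a pyrimidine stretch that begins before the annotated start. In other called genes the run began at another offset from the annotated start, such as -3 in Rps9, 1 in Rpl18 and 4 in Rps26. Of the 24 genes called in Vortex against HSS that have a start here, 12 had the run. The windows of Rps3 and Rps15 hold no such run near the annotated start, which says only that these letters are not there. In the window of 250 bases before to 50 bases after the start, CCGGAAG, a core bound by ETS factors, occurred on either strand in 24 genes (42.1%, against 9.93% of all genes). AAGATGG, a core bound by YY1, occurred on either strand in 9 (15.8%, against 7.28%). TATAAA did not occur on the sense strand within 50 bases before a start in any of the 57, against 3.15% of all genes. A match is a description of letters, not a bound site.

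Library totals ran from 17407217 to 22965802 counts. Normalised levels of a gene are given as CPM, its count relative to the TMM-scaled library total. All 12 endothelial marker genes chosen for the check of cell identity were tested. Their summed level was 2510 to 3210 CPM in PSS, 705 to 719 in HSS, and 1240, 7130 and 1640 in Vortex-1, Vortex-2 and Vortex-3. Vortex-2 stood apart from its group. Its 9 pericyte or fibroblast markers summed to 62.8 CPM against 657 and 599 in the other Vortex libraries, and genes in the lowest eighth by GC content lay at a median of -1.43 log2 units from the PSS mean there, against -0.15 and -0.46. The leukocyte list summed to 7.21 to 7.8 CPM in PSS, 22.4 to 25.4 in HSS and 22.2 to 56.0 in Vortex, with Ptprc, Itgam, Adgre1 and Cd79a under 10 counts in every library. The smooth muscle list summed to 59.0 to 158 CPM, the neural or glial list to 11.9 to 16.4 and the epithelial list to 3.92 to 19.7 over the 9 libraries. Endothelial markers, like the ribosomal protein genes, were lowest in HSS, and the part of cell state or cell mixture in the results was not tested. PSS-3 stood apart within PSS for the ribosomal protein genes themselves, as shown next, and the counts and medians that rest on Vortex-2 or PSS-3 are given with and without them.

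The ribosomal protein genes took 2.41% ± 0.0791 (SD, n = 3) of all counts in HSS, 3.79% ± 1.09 (SD, n = 3) in PSS and 4.09% ± 0.0597 (SD, n = 3) in Vortex. The single values were 3.42%, 2.94% and 5.02% in PSS-1, PSS-2 and PSS-3, 2.36%, 2.501% and 2.36% in HSS-1, HSS-2 and HSS-3, and 4.06%, 4.05% and 4.16% in Vortex-1, Vortex-2 and Vortex-3. All HSS libraries lay below all PSS libraries and all Vortex libraries lay above all HSS libraries, while the 3 Vortex values fell inside the PSS range. The share is relative to all other RNA in a library. In these bulk samples a lower share in every cell and a different mix of cells cannot be told apart. The data hold no absolute amount of ribosome per cell. Large-subunit and stalk genes together gave 1.39 to 1.47 times the counts of small-subunit genes in 8 libraries and 1.28 times in Vortex-2. With ribosomal protein pseudogenes and copies added to the sum, the shares were 3.18% to 5.41% in PSS, 2.56% to 2.69% in HSS and 4.32% to 4.48% in Vortex.

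**Figure D1:**
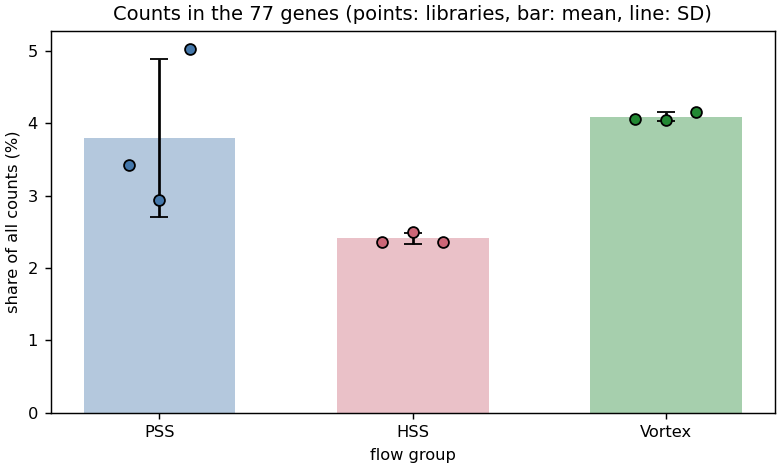
Share of all counts in the 77 ribosomal protein genes (y axis, percent) by flow group (x axis). Points are libraries, bars are group means and lines are SD. The 3 PSS points spread from 2.94% to 5.02%, around the tight Vortex points and above the HSS points.

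The PSS libraries differed among themselves nearly as a block. Relative to the mean of the PSS libraries, the median of the 77 genes was -0.12 log2 units in PSS-1, -0.38 in PSS-2 and 0.51 in PSS-3, while the median of all tested genes stayed within 0.04 of 0 in all 9 libraries. PSS-3 was the highest PSS library for 75 genes and PSS-2 the lowest for 70. The exceptions to PSS-3 were Rps10 and Rpl24, both lowest there and the 2 genes with the fewest counts of the 77. The same median was -0.62, -0.50 and -0.67 in HSS-1, HSS-2 and HSS-3, and 0.36, 0.38 and 0.29 in Vortex-1, Vortex-2 and Vortex-3. The median coefficient of variation over the 77 genes was 34.4% within PSS, against 16.8% for all tested genes, 5.95% within HSS, against 5.86%, and 12.1% within Vortex, against 40.9%.

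**Figure D2:**
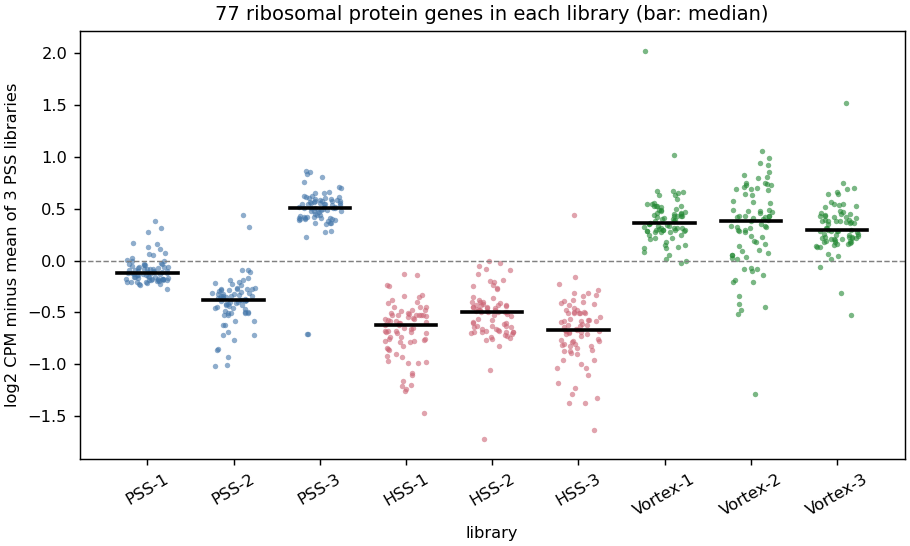
Log2 difference of each ribosomal protein gene from the mean of the 3 PSS libraries (y axis) in each of 9 libraries (x axis). Points are the 77 genes and bars their median. The PSS medians spread from -0.38 to 0.51, the HSS medians lie between -0.67 and -0.50 and the Vortex medians lie between 0.29 and 0.38.

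Single genes varied to different extents within PSS. Rpl8, which lines the peptidyl transferase centre, was the steadiest, with 761, 765 and 963 CPM (coefficient of variation 13.9%). Rps2, a protein of the mRNA entry side of the small subunit, followed with 1309, 1399 and 1798 CPM (17.3%), and the stalk gene Rplp2 with 154, 121 and 184 CPM (20.7%). At the other end stood Rpl35, a protein at the mouth of the exit tunnel, with 46.2, 20.4 and 75.3 CPM (58.1%). Rpl39, a short protein of the tunnel wall, had 151, 84.3 and 275 CPM (56.8%), and Rps29, a zinc-binding protein of the small-subunit head, had 136, 60.3 and 216 CPM (56.6%). In each of these 6 genes PSS-3 was the highest, and in all but Rpl8 and Rps2 PSS-2 was the lowest. The ratio of the highest to the lowest PSS library ran from 1.27 for Rpl8 to 3.69 for Rpl35 and had a median of 1.88.

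Raising laminar shear above the physiological level is tested by HSS against PSS. Of the 77 genes, 1 fell (Rps10, a row of few counts described below), 0 rose and 76 did not pass (edgeR quasi-likelihood test, Benjamini-Hochberg adjusted p under 0.05). Among all tested genes 3.7% were called lower and 4.18% higher in this comparison (7.87% in either direction), so the share called among ribosomal protein genes was not above the background. At an unadjusted p under 0.05, 56 of the 77 were lower, against 11.4% of all tested genes. The median log2 fold change of the 77 was -0.66, against -0.01 for all tested genes, and 76 values were below 0 (50.4% of all tested genes). In 54 of the 77 all 3 HSS libraries lay below all 3 PSS libraries (26.3% of all tested genes). Without PSS-3 the median was -0.37, and without PSS-2 it was -0.85. The number called among the 77 and the share called among all tested genes both changed with the libraries fitted. It was 50 without Vortex-2, where 29.1% of all tested genes were called in either direction, and 2 without Vortex-1 (12.4%). It was 7 without PSS-2 (2.84%), 0 without PSS-1 (1.92%) and 0 without any one of the HSS libraries (1.74% to 1.84%). DESeq2 called 26 of the 77 and 15.6% of all tested genes. When only the 6 libraries compared were fitted, 52 of the 77 and 40.8% of all tested genes were called.

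Disturbed flow at low shear is set against physiological laminar flow by Vortex against PSS. Of the 77 genes, 0 rose and 0 fell by edgeR, 4 were higher at an unadjusted p under 0.05 (17.7% of all tested genes), and DESeq2 called 1 (Rplp2) of the 77 and 22.1% of all tested genes. Among all tested genes 8.33% were called higher and 5.03% lower (13.4% in either direction). The median log2 fold change of the 77 was 0.27, against 0.11 for all tested genes, and every value was above 0 (56.4% of all tested genes). That sign did not hold for all 77 under other settings: 16 were below 0 with library totals, 19 with a GC trend removed, 20 without PSS-2, 10 without Vortex-1 and 8 without PSS-1. Scaled by library totals alone, those medians were 0.10 and -0.06, so the shift of all genes with the scaling exceeds 0.1. In 5 genes, Rpl8, Rpl19, Rpl28, Rpl13a and Rplp2, all 3 PSS libraries lay below all 3 Vortex libraries (15.6% of all tested genes), and in 1 under library totals. In 41 genes the 3 Vortex values all fell between the lowest and the highest PSS value. PSS-3 was above all Vortex libraries in 42 genes, while PSS-1 and PSS-2 were both below all of them in 63. Without PSS-3 the median was 0.57 and 6 genes were called higher, Rpl28, Rplp2, Rps12, Rps16, Rps19 and Rps23, where 6.62% of all tested genes were called in either direction. Without PSS-2 the median was 0.07 and 0 were called (5.58% of all tested genes). Without Vortex-2 the median was 0.27 and 4 were called, Rpl23, Rpl24, Rpl28 and Rplp2 (36.3% of all tested genes).

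The comparison of Vortex with HSS sets the disturbed flow beside high laminar shear. Of the 77 genes, 32 were higher in Vortex, 0 were lower and 45 did not pass by edgeR. Among all tested genes 4.37% were called higher and 2.67% lower (7.04% in either direction). The called genes were 17 of 43 large-subunit genes, 1 of 3 stalk genes (Rplp2) and 14 of 31 small-subunit genes. The median log2 fold change of the 77 was 0.92, a 1.90-fold difference, against 0.10 for all tested genes, and every value was above 0 (56.5% of all tested genes). Under library totals the all-gene median was -0.03 and the median of the 77 was 0.79, and the number called fell from 32 to 13 (6.33% of all tested genes were called in either direction). Those 13, all among the 32, were Rpl8, Rpl10a, Rpl18, Rpl28, Rpl30, Rpl32, Rpl35a, Rplp2, Rps3, Rps9, Rps15, Rps18 and Rps23. At an unadjusted p under 0.05 stood 75 of the 77 (16.7% of all tested genes were higher at that level). In 75 of the 77 all HSS libraries lay below all Vortex libraries (19.5% of all tested genes), the exceptions being Rps3a1 and Rpl24. Each pair of comparisons shares a group of libraries, so the 3 sets of fold changes are not separate evidence.

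Between Vortex and HSS the median difference of the 77 changed little with the libraries fitted, while the share called among all tested genes moved strongly. So did the number called among the 77. It was 0 without PSS-1 (2.03% of all tested genes called in either direction) and 0 without HSS-1, HSS-2 or HSS-3 (0.154% to 0.159%), with smallest adjusted p from 0.0542 to 0.123 by edgeR, where 67 to 73 of the 77 were at an unadjusted p under 0.05. It was 6 without Vortex-3 (5.89%), 58 without PSS-3 (6.58%) and 66 without Vortex-2 (23.9%). Leaving out any one library kept the median of the 77 between 0.91 and 0.97, and without Vortex-2 it was 0.94. Single genes moved more. The smallest of the 77 log2 fold changes was 0.425 with all libraries and 0.258 without Vortex-2. The largest was 1.706 with all libraries and 2.088 without HSS-2. DESeq2 called 68 of the 77 and 17.1% of all tested genes, and a fit of the 6 compared libraries alone called 4 (Rpl28, Rpl32, Rpl35a and Rps15) and 0.438%.

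**Figure D3:**
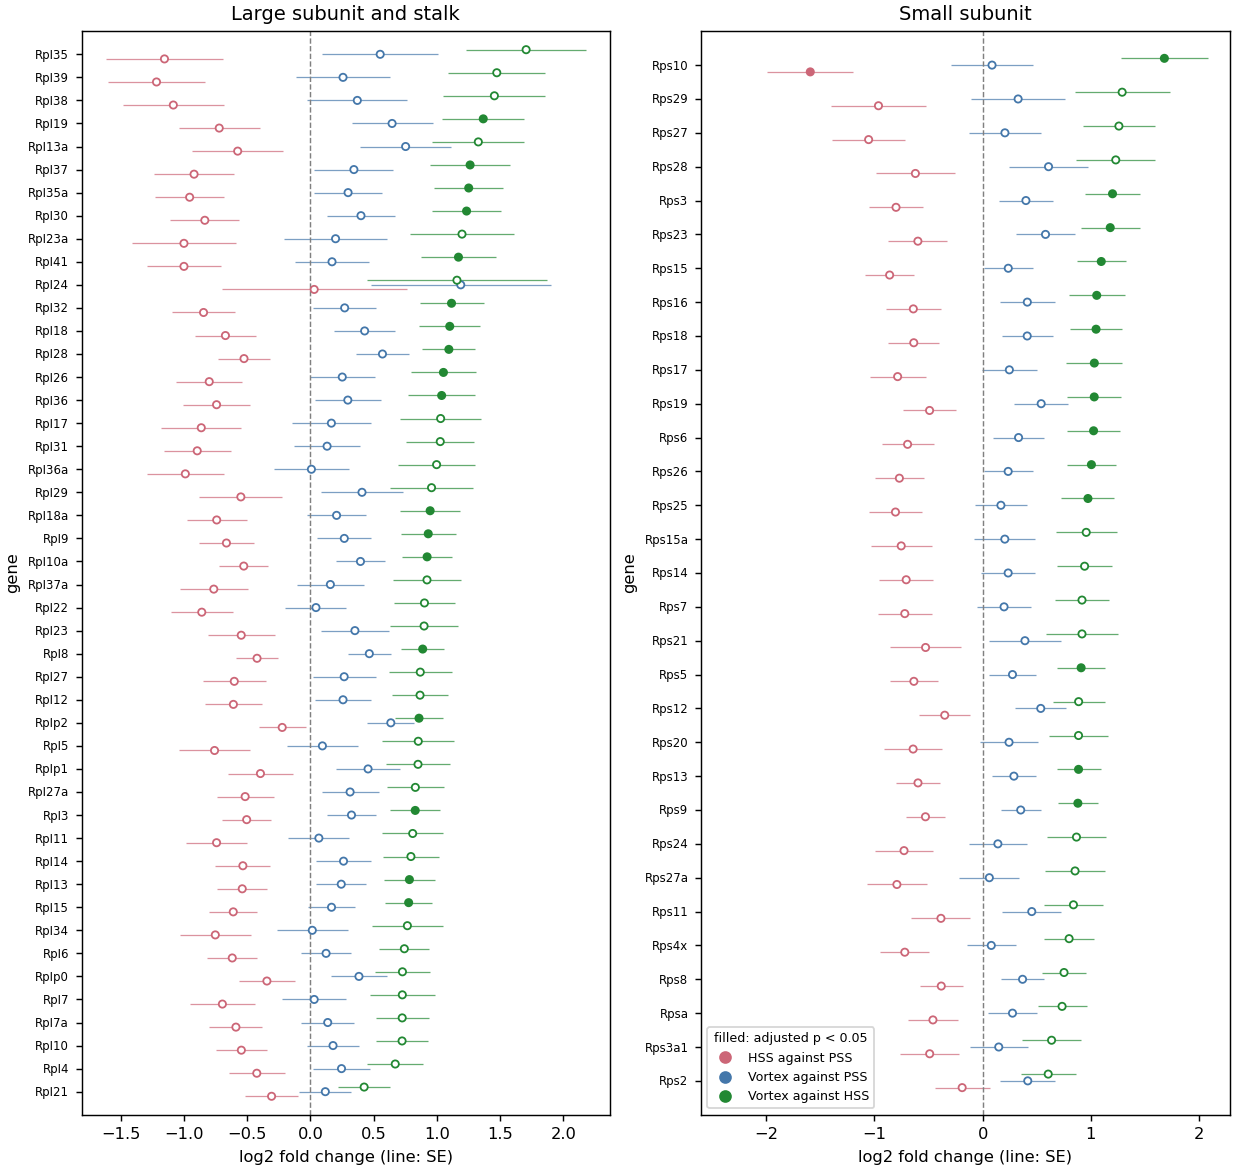
Log2 fold change (x axis) of every ribosomal protein gene (y axis, ordered by Vortex against HSS within each panel) in 3 comparisons. Lines are SE and filled circles have an edgeR adjusted p under 0.05. All Vortex against HSS values lie right of 0, with 32 filled, and 1 HSS against PSS value (Rps10) is filled.

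The stalk of the large subunit, which recruits elongation factors, is built on Rplp0 with dimers of Rplp1 and Rplp2. Rplp2 (ENSMUSG00000025508) had 154, 121 and 184 CPM in the PSS libraries, 127, 142 and 124 in the HSS libraries and 234, 245 and 235 in the Vortex libraries. The HSS values fell inside the PSS range, and all Vortex values lay above every other library. Rplp2 was 1.81-fold higher in Vortex than in HSS (log2 fold change 0.86, SE 0.19, edgeR adjusted p = 0.0309). Against PSS it was 1.55-fold higher, the smallest adjusted p of the 77 in that comparison, and did not pass (log2 fold change 0.64, SE 0.19, edgeR adjusted p = 0.0533). Rplp0 had 796, 678 and 1130 CPM in PSS, 645, 734 and 672 in HSS and 1051, 1372 and 974 in Vortex, and Rplp1 had 370, 347 and 632, then 339, 361 and 327, then 598, 750 and 503. For both, all Vortex libraries lay above all HSS libraries, and PSS overlapped with each group. Neither passed in any comparison (log2 fold change 0.73 for Rplp0 and 0.85 for Rplp1 in Vortex against HSS, edgeR adjusted p = 0.078 and 0.0761). The median log2 fold change of the 3 stalk genes in HSS against PSS was -0.34, against -0.70 for the 43 large-subunit genes and -0.64 for the 31 small-subunit genes, and the differences between these medians were not tested.

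Rpl5 and Rpl11 bind the 5S rRNA, and when free of ribosomes they bind Mdm2, the ligase that destroys p53. Rpl5 had 1037, 914 and 1649 CPM in PSS, 725, 686 and 718 in HSS and 1566, 832 and 1446 in Vortex. Rpl11 had 373, 304 and 600 CPM in PSS, 252, 271 and 241 in HSS and 443, 482 and 412 in Vortex. All HSS libraries were the lowest for both genes, and in Vortex-2 Rpl5 was low but Rpl11 was not. Rpl5 was 1.81-fold and Rpl11 1.75-fold higher in Vortex than in HSS, and neither passed (edgeR adjusted p = 0.0973 and 0.0762).

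Among proteins of the large-subunit core, Rpl8 (ENSMUSG00000003970) had the smallest adjusted p of the 77 in Vortex against HSS. Its levels were 603, 604 and 652 CPM in HSS and 1118, 1319 and 1002 in Vortex, with the PSS libraries in between (log2 fold change 0.89, SE 0.17, edgeR adjusted p = 0.0206). Rpl28 (ENSMUSG00000030432), a eukaryote-specific protein of the large-subunit surface whose start site is shown above, had 279, 224 and 393 CPM in PSS, 204, 212 and 206 in HSS and 439, 432 and 458 in Vortex. Its 3 groups did not overlap at all, in the order HSS, PSS, Vortex. It was 2.14-fold higher in Vortex than in HSS (edgeR adjusted p = 0.0207). Its difference from PSS did not pass in either direction (log2 fold change -0.53 for HSS and 0.57 for Vortex, edgeR adjusted p = 0.162 and 0.101). Rpl3, which reaches into the peptidyl transferase centre, had 386, 351 and 560 CPM in PSS, 294, 313 and 309 in HSS and 577, 530 and 518 in Vortex. Its HSS libraries lay below the others, and its Vortex libraries lay around PSS-3 (1.78-fold between Vortex and HSS, edgeR adjusted p = 0.0381).

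Rpl10a, part of the mobile L1 stalk through which spent tRNA leaves, had 421, 373 and 595 CPM in PSS, 316, 322 and 326 in HSS and 661, 556 and 611 in Vortex. Its HSS libraries lay below the others, and PSS-3 fell among the Vortex values (1.90-fold between Vortex and HSS, edgeR adjusted p = 0.0291). Rpl35a, mutated in some families with Diamond-Blackfan anaemia, had 502, 343 and 780 CPM in PSS, 257, 317 and 264 in HSS and 670, 643 and 684 in Vortex. It was 2.38-fold higher in Vortex than in HSS (edgeR adjusted p = 0.0312), and its Vortex values lay inside the PSS range. Rpl19 had 169, 101 and 250 CPM in PSS, 89.8, 136 and 88.9 in HSS and 254, 306 and 253 in Vortex. It is a bridge to the small subunit, and its HSS-2 value lay above PSS-2 while all Vortex values lay above PSS-3 (2.58-fold between Vortex and HSS, edgeR adjusted p = 0.0393).

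Other large-subunit genes with a known role gave these values. Rpl26, which also binds the p53 mRNA, was 2.07-fold higher in Vortex than in HSS (edgeR adjusted p = 0.0441), and Rpl41, the shortest ribosomal protein, was 2.25-fold higher (edgeR adjusted p = 0.0475). Rpl22, whose paralog Rpl22l1 can replace it, was 1.87-fold higher and missed the threshold (edgeR adjusted p = 0.0557). Rpl38, needed in the mouse embryo for translation of Hox mRNAs, had 179, 85.9 and 286 CPM in PSS, 71.3, 118 and 70.1 in HSS and 207, 271 and 235 in Vortex, a 2.74-fold difference between Vortex and HSS that did not pass (edgeR adjusted p = 0.0603). Its HSS-2 value lay above PSS-2. The widest log2 difference between Vortex and HSS among the 77 was that of Rpl35, 1.71 (SE 0.47, edgeR adjusted p = 0.0603), with 19.3, 31.2 and 13.3 CPM in HSS and 54.7, 86.2 and 67.1 in Vortex. Rpl4, a wall protein of the exit tunnel, had the lower value of 1.59-fold (edgeR adjusted p = 0.0973) with 1201 CPM in Vortex-2 beside 1961 and 1774 in the other Vortex libraries. Rpl10, which joins the large subunit late in its maturation, was 1.65-fold higher and did not pass (edgeR adjusted p = 0.0621).

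In the small subunit Rps10 (ENSMUSG00000052146), which lies in the head and is ubiquitinated when ribosomes collide, was the gene called in HSS against PSS. It had 6.91, 7.77 and 3.50 CPM in PSS, 2.07, 1.74 and 2.21 in HSS and 8.88, 6.47 and 3.99 in Vortex. All HSS libraries lay below all others, and unlike nearly all of the 77 it was lowest of PSS in PSS-3. It fell by 1.59 on the log2 scale in HSS (SE 0.40, edgeR adjusted p = 0.0427) and was 3.20-fold higher in Vortex than in HSS (edgeR adjusted p = 0.0391). These are small numbers, 31 to 44 counts per HSS library and 74 to 160 per PSS library. The row of its pseudogene Rps10-ps2 was far higher, with 159, 127 and 229 CPM in PSS, 101, 111 and 91.1 in HSS and 202, 207 and 238 in Vortex, and with PSS-3 highest of PSS. The log2 fold changes of Rps10-ps2 were -0.77 in HSS against PSS, which did not pass (edgeR adjusted p = 0.0785), and 1.09 in Vortex against HSS (edgeR adjusted p = 0.0289). How reads were split between these rows was not tested, so the fold changes of Rps10 and its order within PSS are uncertain along with its level. The HSS against PSS call was lost without PSS-1, PSS-2 or any one of the HSS libraries (edgeR adjusted p = 0.133 to 0.175), and over all settings tried the adjusted p ran from 0.00203 to 0.175. Rps15, which helps mature small subunits leave the nucleus, came next in HSS against PSS, at the threshold but not past it, with 553, 452 and 834 CPM in PSS, 343, 348 and 323 in HSS and 658, 721 and 788 in Vortex. Every HSS library was below every PSS library (log2 fold change -0.86, edgeR adjusted p = 0.05). It was 2.14-fold higher in Vortex than in HSS (edgeR adjusted p = 0.0263).

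Rps6, the classical substrate of the S6 kinases downstream of mTOR, had 614, 553 and 989 CPM in PSS, 454, 446 and 433 in HSS and 999, 720 and 994 in Vortex. Its HSS libraries were the lowest, and Vortex overlapped with PSS. It was 2.04-fold higher in Vortex than in HSS (edgeR adjusted p = 0.0383). Rps3, at the mRNA entry channel and also a DNA repair nuclease, had 673, 605 and 1108 CPM in PSS, 461, 465 and 445 in HSS and 962, 1288 and 897 in Vortex. The 2.30-fold difference between Vortex and HSS passed (edgeR adjusted p = 0.0276), and Vortex lay around PSS-3. Rps18, at the head of the small subunit, had 589, 439 and 868 CPM in PSS, 387, 450 and 383 in HSS and 860, 847 and 815 in Vortex, with HSS-2 above PSS-2 (2.07-fold between Vortex and HSS, edgeR adjusted p = 0.0348). Rps19, the gene most often mutated in Diamond-Blackfan anaemia, had 226, 202 and 384 CPM in PSS, 191, 193 and 194 in HSS and 412, 436 and 334 in Vortex. It was 2.04-fold higher in Vortex than in HSS (edgeR adjusted p = 0.0417), and Rps26, at the mRNA exit channel, was 2.01-fold higher (edgeR adjusted p = 0.0355).

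Several small-subunit genes stayed short of the threshold between Vortex and HSS. Rps2 had 1349, 1267 and 1337 CPM in HSS and 1728, 2862 and 1426 in Vortex, with Vortex-2 far above the rest (log2 fold change 0.61, edgeR adjusted p = 0.167). Rps3a1 had 127, 126 and 132 CPM in HSS and 243, 124 and 231 in Vortex, so that Vortex-2 lay below every HSS library (edgeR adjusted p = 0.170). Its copies Rps3a2 and Rps3a3 are counted on their own rows, with 267 and 141 CPM in Vortex-2 beside 455 and 263 in Vortex-1. Rps14, which lies in the platform of the small subunit, was 1.92-fold higher in Vortex than in HSS (edgeR adjusted p = 0.0552). Rps27a, made as a fusion with ubiquitin, was 1.81-fold higher (edgeR adjusted p = 0.0937), and Rps4x, carried by the X chromosome, 1.74-fold (edgeR adjusted p = 0.0654). Rpsa, the laminin receptor precursor by its older name, was 1.66-fold higher, with 2034 CPM in Vortex-2 and 1488 and 1378 in the other Vortex libraries (edgeR adjusted p = 0.0823).

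**Figure D4:**
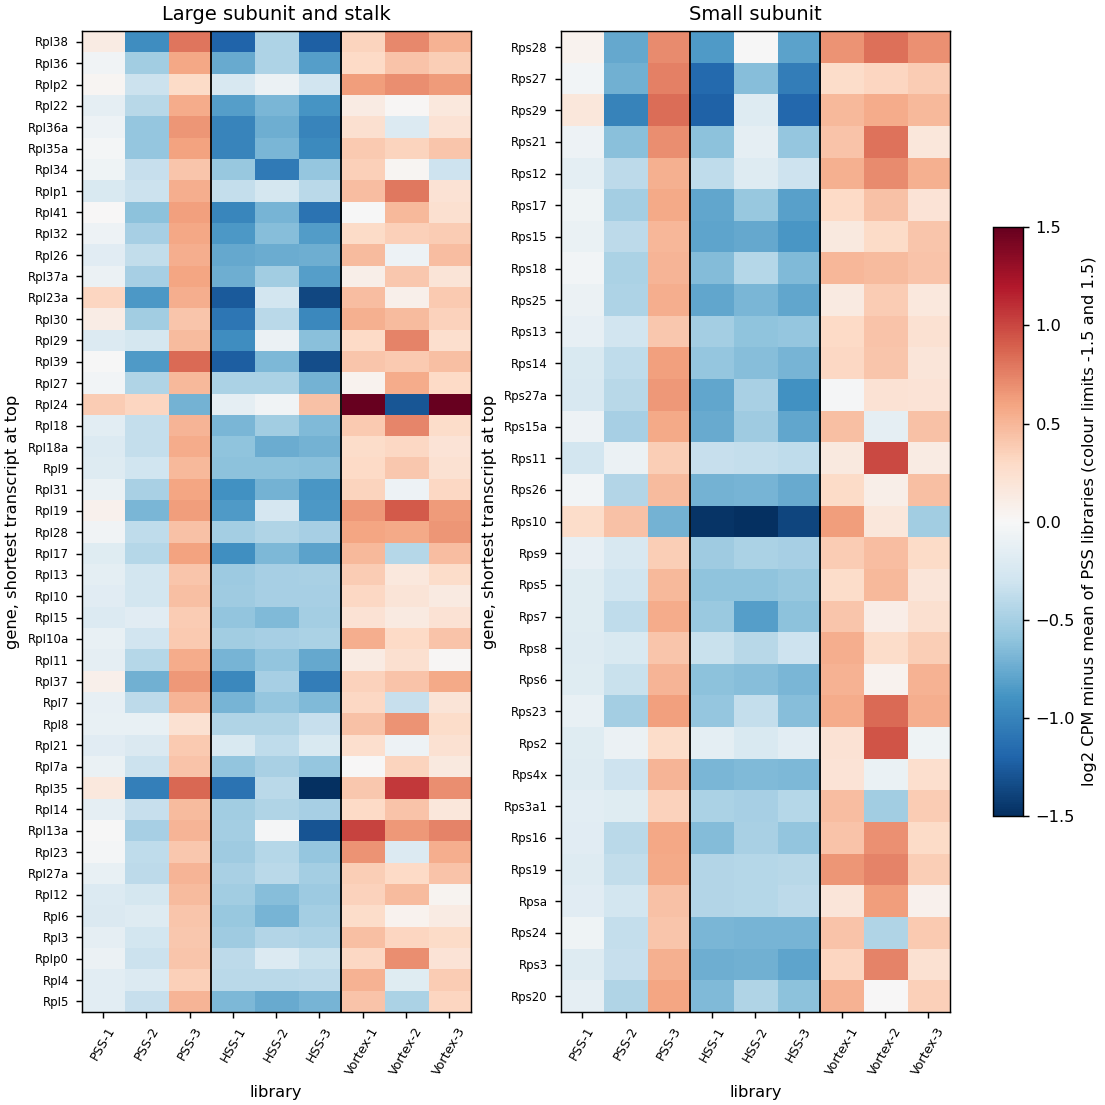
Log2 difference from the PSS mean (colour, limits -1.5 and 1.5) of each ribosomal protein gene (rows, shortest transcript at the top) in 9 libraries (columns). PSS-3 is red and PSS-2 blue in nearly every row, HSS is at or below the PSS mean apart from Rpl24 in HSS-3, and Vortex-2 mixes red and blue. Values past the limits occur in Rps10, Rpl35 and Rpl24.

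Levels between genes can be compared only per length, here as deposited FPKM (fragments per kilobase of gene, scaled to depth) averaged over 9 libraries. The highest were Rplp1 at 929.9, Rps15 at 877.9 and Rps2 at 870.4 FPKM, and 60 of the 77 were at 100 FPKM or more, around a median of 201. By CPM per kilobase of the coding transcript the highest were instead Rps2, Rpl32 and Rpl41, with Rplp1 at rank 12, so the order at the top depends on the length used. By FPKM the lowest were Rpl24 at 0.677, Rps10 at 2.08 and Rpl34 at 4.18 FPKM, and 7 genes were under 20 FPKM, the others being Rpl13a, Rpl29, Rpl23a and Rpl30. How the authors' counting treated reads shared between copies is not stated, and the table lists 193 ribosomal protein pseudogenes, with at least 1 for 50 of the 77 genes. The 7 low rows and genes with near-identical copies are therefore uncertain in level and in fold change. Rpl24 rested on 4 to 30 counts per library, with 1.89, 0.190 and 1.33 CPM in Vortex, 0.605, 0.583 and 0.284 in PSS and 0.424, 0.448 and 0.630 in HSS, and its groups overlapped in every comparison. The pseudogene rows themselves moved much as the parent genes did. Of 75 tested, 8 were called higher in Vortex than in HSS (median log2 fold change 0.92), 1 lower in HSS than in PSS (median -0.58) and 1 lower in Vortex than in PSS (median 0.27). With all 9 libraries 7.04%, 7.87% and 13.4% of all tested genes were called in these comparisons, in the same order and in either direction. Pseudogene calls between Vortex and HSS were 30 of 77 tested without Vortex-2 (23.9% of all tested genes) and 22 of 78 without PSS-3 (6.58%).

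The ribosomal protein transcripts are short, and short transcripts at large moved in the same direction across the PSS and HSS libraries, but not in every Vortex library. The median transcript length was 751 bases for the 77 genes and 2580 for all tested genes with an annotated length, and 61 of the 77 were in the shortest eighth (up to 991 bases). The 1881 other genes of that eighth had a median log2 difference from the PSS mean of -0.05, -0.19 and 0.26 in PSS-1, PSS-2 and PSS-3. It was -0.22, -0.20 and -0.28 in HSS-1, HSS-2 and HSS-3, and 0.06, 0.17 and -0.05 in Vortex-1, Vortex-2 and Vortex-3. The order of the PSS libraries and the low HSS libraries are thus seen in short transcripts outside the ribosome as well, at a smaller size, whereas the Vortex medians of the 77 (0.29 to 0.38) exceeded those of other short genes in each library. With a smooth trend on transcript length taken out of every library, the median log2 fold change of the 77 was -0.45 in HSS against PSS with 0 called. It was 0.30 in Vortex against PSS with 3 called (Rpl28, Rplp2 and Rps12) and 0.72 in Vortex against HSS with 40 called. Of all tested genes 8.22%, 15.6% and 8.79% were then called in either direction, in the same order of comparisons. The part of transcript length, or of anything that affects RNA by length, in these differences was not tested further.

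**Figure D5:**
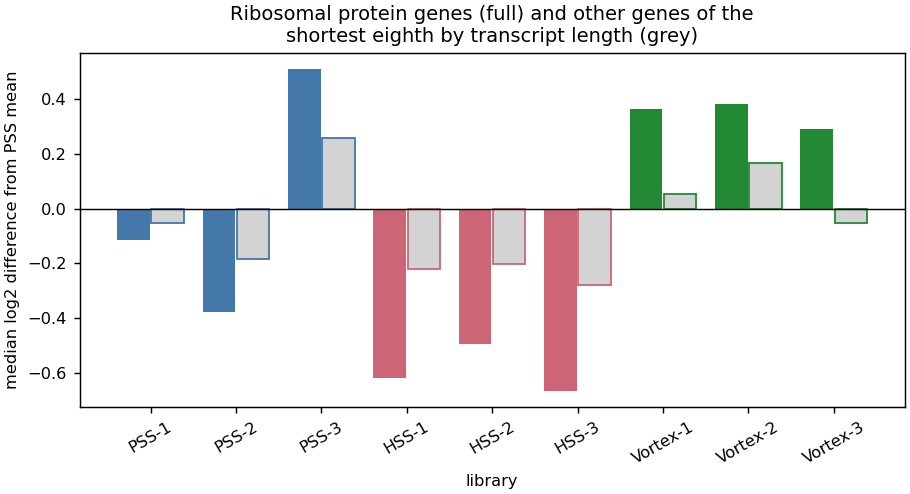
Median log2 difference from the PSS mean (y axis) in 9 libraries (x axis) for the 77 ribosomal protein genes (full bars) and for 1881 other genes of the shortest eighth by transcript length (grey bars). The grey bars follow the full bars in PSS and HSS at a smaller height, and stay between -0.05 and 0.17 in Vortex.

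Within the 77 genes, the shortest and longest transcripts were set side by side. The 15 shortest (up to 500 bases) had medians of -0.07, -0.52 and 0.58 in the PSS libraries, against -0.16, -0.35 and 0.48 for the 15 longest (from 1047 bases). In HSS the shortest lay at -0.79, -0.47 and -0.82 and the longest at -0.53, -0.44 and -0.55. In Vortex the shortest lay at 0.35, 0.43 and 0.38 and the longest at 0.43, 0.32 and 0.32. The shortest thus spread more than the longest within PSS and HSS and not within Vortex, and these differences were not tested. Between Vortex and HSS the median log2 fold change was 1.03 for the 15 shortest, with 5 called, and 0.87 for the 15 longest, with 4 called. Within Vortex-2 the distance of a gene from the median of the 77 went with its GC content (Spearman rho 0.504 over 77 genes of 1 library, which are not independent), while in the other libraries rho ran from -0.18 to 0.25. With a trend on GC content removed, 28 of the 77 were called in Vortex against HSS, 15 of them among the 32. Of all tested genes 8.65% were then called in either direction. A pyrimidine run at the annotated start was present in 12 of the 24 called genes with a start and in 15 of the 33 others. The median log2 fold change between Vortex and HSS was 1.02 for the 27 genes with the run and 0.91 for the 30 without.

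Genes that work with the ribosome were followed by lists chosen by function. Of 9 tested ribosomal proteins and paralogs outside the naming rule, 2 were higher in Vortex than in HSS and none passed against PSS. Among all tested genes 7.04% were called in Vortex against HSS in either direction. The share was 7.87% in HSS against PSS and 13.4% in Vortex against PSS. Rack1, the scaffold protein of the small-subunit head, had 742, 717 and 1120 CPM in PSS, 548, 534 and 553 in HSS and 1030, 1030 and 944 in Vortex (log2 fold change 0.88 between Vortex and HSS, edgeR adjusted p = 0.0311). The other was Rps27rt, a copy of Rps27 (1.46, edgeR adjusted p = 0.0269). Fau, the precursor of the small-subunit protein eS30, was 0.83 higher and did not pass (edgeR adjusted p = 0.0767). The median of the 9 was -0.61 in HSS against PSS, 0.22 in Vortex against PSS and 0.83 in Vortex against HSS.

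Translation factors and other genes whose mRNAs carry the pyrimidine tract numbered 21. In Vortex against HSS 6 were higher and 0 lower (median log2 fold change 0.46). Eef1g, a subunit of the factor that recharges Eef1a with GTP, had 909, 906 and 1250 CPM in PSS, 734, 708 and 706 in HSS and 1340, 1560 and 1410 in Vortex (log2 fold change 1.01, edgeR adjusted p = 0.0153). Eef2, the translocation factor, had 1730, 1900 and 1480 CPM in PSS, 1720, 1720 and 1780 in HSS and 3020, 3600 and 2780 in Vortex. Unlike the ribosomal protein genes it was lowest of PSS in PSS-3 and close between PSS and HSS (log2 fold change 0.03, of either sign over the settings tried), and it rose in Vortex against HSS (0.85, edgeR adjusted p = 0.0196) and against PSS (0.88, edgeR adjusted p = 0.00987). The initiation factor subunit Eif3f and the poly(A)-binding protein Pabpc1 also rose in Vortex against PSS (0.97 and 1.05, edgeR adjusted p = 0.00703 and 0.00519). Hnrnpa1, a splicing factor, fell by 0.99 there (edgeR adjusted p = 0.00907). With all 9 libraries 7.04% of all tested genes were called in Vortex against HSS in either direction. The share was 13.4% in Vortex against PSS and 7.87% in HSS against PSS. In HSS against PSS 0 of the 21 passed by edgeR, 7 were at an unadjusted p under 0.05, and the median was -0.40. Without Vortex-2, 11 were called higher and 1 lower in Vortex against HSS (median 0.59), and 10 lower and 1 higher in HSS against PSS. In that fit 23.9% of all tested genes were called in Vortex against HSS and 29.1% in HSS against PSS, in either direction.

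Of 46 genes for ribosome assembly and RNA polymerase I, 0 rose in any comparison by edgeR. In Vortex against PSS 4 fell, among them Riok2, an atypical kinase of small-subunit maturation (log2 fold change -0.87, edgeR adjusted p = 0.0134), Dkc1, the pseudouridine synthase (-1.05, edgeR adjusted p = 0.0181), and nucleolin, Ncl (-1.14, edgeR adjusted p = 0.0242). Ncl had 1630, 1550 and 1980 CPM in PSS, 1580, 1510 and 1460 in HSS and 997, 462 and 888 in Vortex. Ddx21, a nucleolar helicase, fell in Vortex against HSS (-0.69, edgeR adjusted p = 0.0378). The Ncl call was lost without any one of the PSS or HSS libraries (edgeR adjusted p = 0.0519 to 0.0835). That of Ddx21 was lost without PSS-1, PSS-2, Vortex-3 or any one of the HSS libraries (edgeR adjusted p = 0.0571 to 0.176). Without PSS-1 the Riok2 call was lost (edgeR adjusted p = 0.056). Dkc1 lost its call without PSS-1 or PSS-3 (edgeR adjusted p = 0.0601 to 0.0625). With all 9 libraries 13.4% of all tested genes were called in Vortex against PSS in either direction (5.03% lower). The share was 7.04% in Vortex against HSS and 7.87% in HSS against PSS. The medians of the list were -0.05 in HSS against PSS, 0.04 in Vortex against PSS and 0.00 in Vortex against HSS. In Vortex-2 the list lay at a median of 0.44 from the PSS mean, against -0.39 and -0.26 in Vortex-1 and Vortex-3. The Vortex medians of this list thus did not lie together as the medians of the ribosomal protein genes did. Without Vortex-2 the medians were -0.36 in Vortex against PSS, with 18 called lower and 0 higher, and -0.26 in Vortex against HSS, with 14 lower and 0 higher. In HSS against PSS 6 were then lower and 1 higher. That fit called 36.3% of all tested genes in either direction in Vortex against PSS. It called 23.9% in Vortex against HSS and 29.1% in HSS against PSS.

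Of 25 genes of the mTOR pathway and of translation control, Sesn2, a stress-induced inhibitor of mTOR signalling, rose in HSS against PSS (log2 fold change 1.10, edgeR adjusted p = 0.0254). It had 14.5, 16.9 and 12.6 CPM in PSS, 31.6, 32.2 and 30.1 in HSS and 26.7, 31.8 and 46.5 in Vortex, and it rose in Vortex against PSS as well (1.25, edgeR adjusted p = 0.0112). Eif4ebp1, which holds the cap-binding protein Eif4e until mTOR phosphorylates it, had 45.0, 44.2 and 59.4 CPM in PSS, 55.1, 49.4 and 53.2 in HSS and 145, 164 and 117 in Vortex. It rose in Vortex against PSS (1.52, edgeR adjusted p = 0.00404) and against HSS (1.43, edgeR adjusted p = 0.00967). Pdcd4, an inhibitor of the helicase Eif4a, fell by 1.62 in Vortex against PSS (edgeR adjusted p = 0.0125). Larp1 had 155, 167 and 107 CPM in PSS, 224, 222 and 214 in HSS and 203, 214 and 216 in Vortex, and did not pass in HSS against PSS (0.62, edgeR adjusted p = 0.0839). Its lowest library was PSS-3. In all, 1 of the 25 rose in HSS against PSS, 2 rose and 1 fell in Vortex against PSS, and 1 rose in Vortex against HSS. Of all tested genes 7.87%, 13.4% and 7.04% were called in these comparisons, in the same order and in either direction. The calls in this list were thus not above the background. The HSS against PSS call of Sesn2 was lost without any one of the PSS or HSS libraries (edgeR adjusted p = 0.0651 to 0.119). Without Vortex-2, 8 of the 25 rose and 2 fell in HSS against PSS, where 29.1% of all tested genes were called in either direction. Larp1 passed there (edgeR adjusted p = 0.0148). In the same fit 7 rose and 2 fell in Vortex against PSS (36.3% of all tested genes called). In Vortex against HSS 4 rose and 3 fell (23.9% of all tested genes called).

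The 78 mitochondrial ribosomal protein genes, which serve the separate ribosome of that organelle, gave medians of -0.24, 0.19 and 0.42 in HSS against PSS, Vortex against PSS and Vortex against HSS. Calls were 0 in the first (4 at an unadjusted p under 0.05), 4 higher and 1 lower in the second, and 1 higher in the third (Mrps30, 1.03, edgeR adjusted p = 0.0197). Of all tested genes 7.87%, 13.4% and 7.04% were called in these comparisons, in the same order and in either direction. The median differences of the 78 genes from the PSS mean were -0.08, -0.24 and 0.34 in the PSS libraries, in the same order as for the cytosolic genes. In Vortex they were -0.17, 0.61 and -0.03, so that Vortex-2 alone lay high. Without Vortex-2 the medians were -0.13 in Vortex against PSS, with 4 called higher and 5 lower, and 0.16 in Vortex against HSS, with 4 higher, so the direction against PSS rested on that library. In HSS against PSS 7 were then called lower. Of all tested genes, 36.3% were called in either direction without Vortex-2 in Vortex against PSS. The share was 23.9% in Vortex against HSS and 29.1% in HSS against PSS.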

How the data were processed

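The authors made 9 polyA RNA libraries and deposited read counts per gene and FPKM for the same libraries in 1 table. Per the submitters' processing notes, HISAT2, HTSeq 0.13.5 and GRCm39 were used. The strand setting, the handling of reads that map to several places and the making of the FPKM values are not given in the sources used here. Counts as deposited were fitted with edgeR 4.0.16 in R 4.3.3 (filterByExpr, TMM scaling, robust quasi-likelihood test, all 9 libraries, common biological coefficient of variation 0.35) over 15774 genes. CPM values are TMM-scaled, and FPKM were used for levels and in limma 3.58.1 on log2(FPKM + 1) and log2(FPKM + 0.1). The fit was tested on simulated data. Transcript length and GC content came from GENCODE M21 on GRCm38, matched for 98.5% of tested genes.

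Members and lists were chosen with earlier results of these data known. Genes named are the 8 with the smallest p in each comparison, up to 20 called, those with set roles, the 3 highest and 3 lowest by FPKM, the extremes of the fold changes and the 3 smallest p of each other list. Of these, the text gives a part. Other genes were named after their values were seen: Rps29 for its spread in PSS, Rps16, Rpl29, Rpl23a and others that make up a small count, and Rps3a2 and Rps3a3 as copies. An exact permutation test of 3 against 3 libraries cannot go below p = 0.1 and was not used.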

Additional observations from a re-analysis of the deposited data

How the results depend on the processing

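The median log2 fold changes kept their sign under every setting tried: -0.85 to -0.37 in HSS against PSS, 0.07 to 0.57 in Vortex against PSS and 0.72 to 0.97 in Vortex against HSS. The counts called did not. In HSS against PSS (1 called) the count was 2 with DESeq2 size factors, with library totals, with TMM factors computed without the 77 genes, and with a filter of 1 CPM in 3 libraries. It was 3 with a GC trend removed, 0 with a length trend removed, 26 with the DESeq2 1.42.0 Wald test and 52 with the 6 compared libraries, and 0 to 50 when 1 library was left out. Among all tested genes the number called went from 1242 to 1479 with the GC trend and 1297 with the length trend removed. It was 2456 with DESeq2, 6233 with the 6 compared libraries and 285 to 4730 with 1 library left out. These counts thus did not move in the 77 alone. In Vortex against PSS (0 called) the count in the 77 was 3 with the length trend removed and 1 with DESeq2. It was 0 to 6 with 1 library left out. Under these settings all tested genes called went from 2107 to 2461, to 3489, and to between 519 and 5888. In Vortex against HSS (32 called) the count in the 77 was 13 with library totals, 14 with no filter beyond 1 count and 68 with DESeq2. It was 9 and 11 with limma on log2(FPKM + 1) and log2(FPKM + 0.1). The 6 compared libraries gave 4, and leaving out 1 library gave 0 to 66. All tested genes called went from 1111 to 998 with library totals, 713 with no filter beyond 1 count and 2700 with DESeq2. They numbered 870 and 833 of 20099 genes with limma, 66 with the 6 compared libraries, and 25 to 3887 with 1 library left out. Genes with every PSS library below every Vortex library numbered 5, and 1 with library totals. The sign changed for Rpl24, HSS against PSS, with library totals (-0.011) and without PSS-3 or HSS-3 (-0.246 to 0.204 over the libraries left out), and for Rplp2, HSS against PSS, with the length trend removed (0.12). In Vortex against PSS, where all 77 values were above 0, between 1 and 20 were below 0 under 14 of the settings (20 without PSS-2, 19 with the GC trend removed, 16 with library totals). The value of Eef2, HSS against PSS, 0.029, changed sign with library totals (-0.009), no filter beyond 1 count (-0.002), the GC trend removed with or without the block (-0.15), the length trend removed (-0.057) and without PSS-3 (-0.063 to 0.107 over the libraries left out). Counts rose as well as fell when a library was left out. A fit that holds all 3 groups estimates 1 spread per gene over them. The p-values of a comparison thus also carry the spread within the group not compared. The fit of the 6 compared libraries leaves that group out. With it the count in the 77 went from 1 to 52 in HSS against PSS. In Vortex against HSS it went from 32 to 4, and in Vortex against PSS it stayed at 0. The filter and the scaling were also redone in that fit, so the part of the spread alone was not tested.

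Deviations from the group means showed no clear pairing by number (correlations from -0.12 to 0.12 between same-numbered libraries). With 3 libraries a group such correlations cannot exclude a shared day or batch, and the labels name no pairing. With a replicate block 0 of the 77 were called in HSS against PSS, 0 in Vortex against PSS and 1 (Rpl28) in Vortex against HSS. Of all tested genes 4.89%, 7.98% and 2.26% were then called in either direction. With the replicate block and the GC trend removed the counts were 0, 0 and 5, beside 5.81%, 4.16% and 2.72% of all tested genes. Not every library correlated best with its own number.

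Rpl24 and Rps10 rest on few counts, and whether their reads went to copies was not tested. The labels give no batch. The settings on transcript length, overlap under other scalings, CPM per kilobase, pseudogene rows, the sign counts and the lists or their genes under other settings were chosen after seeing the data. Levels by CPM per kilobase and by FPKM had a Spearman rho of 0.783 over the 77 genes.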
